A study of Rattus norvegicus with 30 samples.

Results

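The 10 genes described here are muscle genes whose main site of expression is skeletal muscle rather than heart, measured in whole hearts of rats of both sexes at 3 ages. They are the fast myosin heavy chains Myh1, Myh2 and Myh4, the fast troponin subunits Tnnt3, Tnni2 and Tnnc2, the fast myosin binding protein Mybpc2, the actinin Actn3, the calcium buffer Pvalb and the calcium pump Atp2a1. They were chosen by their wide spread at 21 weeks, so every 21-week value below is a description without a test. They are 10 of the 24752 names in the tables of processed values, and they hold 10 of 27408 rows at 8 weeks, 11 of 27383 at 21 weeks and 9 of 26553 at 78 weeks. Tnnc2 has 2 rows, Myh1 has none at 8 and 78 weeks, and Pvalb has none at 78 weeks. For the missing rows the scanner values of the same probes were used.

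The samples were hearts of untreated Fischer 344 rats, an inbred strain, 5 of each sex at 8, 21 and 78 weeks, with 1 single-color array per rat. All groups shared strain, colony, diet and housing, no group carried a transgene or received an agent, and hearts were taken whole and ground to powder. Per the study, both sexes of an age were handled in 1 batch and the ages in different batches. Levels at different ages are therefore set side by side and not tested. A slide nevertheless held 8-week replicate 5 and 78-week replicate 1 of both sexes. Within every slide females were at position 2 or 4 and males at position 1 or 3, so sex and position cannot be told apart. A level is the processed signal of a probe relative to the 75th percentile of the array it was on, so a level of 1 is that percentile. On the 30 arrays between 17223 and 24342 of the 45018 spots were well above background, and 5 rats a group set how precise any comparison can be. The labelled tissue carried its markers: all 16 heart muscle genes listed were well above background on the array of 21-week female replicate 2 that is described most below, and their summed level lay between 2441 and 7511 on the 30 arrays. The Y-linked genes Ddx3y and Eif2s3y went against the sex label on 2 arrays at 78 weeks. In the array labelled female replicate 2 their levels were 0.312 and 1.49, and in the array labelled male replicate 3 they were 0.0131 and 0.0121, not well above background. The labels were kept, and the 78-week sex comparisons are given with and without these 2 arrays.

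Striated muscle contracts when calcium binds the C subunit of troponin, which moves the inhibitory subunit away from actin and lets myosin heads pull on the thin filament. Heart and skeletal muscle use different members of the same gene families for this machinery. Adult fast skeletal fibres rely on Myh1, Myh2 and Myh4, on Tnnt3, Tnni2 and Tnnc2, on Actn3 at the Z-disc and on Atp2a1, which pumps calcium back into the sarcoplasmic reticulum. The heart relies on Myh6 and Myh7, Tnnt2, Tnni3, Tnnc1, Mybpc3, Actn2 and Atp2a2. Pvalb, which binds calcium in the cytosol and speeds relaxation, is abundant in the fastest fibres. A whole-heart RNA is a mixture, in which more or fewer cells of a type and more or less RNA per cell cannot be told apart.

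Each row was measured by a single probe of 60 bases, and the sequences that the later values turn on are shown here, 5′ to 3′, with their positions in the rat build rn3 as the scanner files give them. No gene annotation of that build was used here, so exon and UTR are not stated. The first 3 lines are the myosin probes, which lie in 1 cluster on the plus strand of chromosome 10 (Myh2 at chr10:53902866-53902925, Myh1 at chr10:53931485-53931544 and Myh4 at chr10:53967556-53967615).
Myh4: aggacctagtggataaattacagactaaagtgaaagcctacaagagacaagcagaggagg
Myh1: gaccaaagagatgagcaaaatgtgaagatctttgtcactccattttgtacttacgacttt
Myh2: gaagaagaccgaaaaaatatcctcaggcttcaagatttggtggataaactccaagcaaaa
The longest run of bases shared by any pair of these 3 probes was 9, between Myh2 and Myh4, and no other probe on the array shared a run of 25 bases with any of the 11 member probes. The myosin paralogs are similar in sequence elsewhere, and signal from a paralog at these probes was not tested.

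The probes for Actn3 (chr1:207629023-207629082, minus strand) and Pvalb (chr7:116148929-116148988, minus strand) are shown because both rows were near background on most arrays and far higher on 1 array. The probes for Tnni2 (chr1:202849772-202849831) and Tnnt3 (chr1:202919125-202919184) lie 69293 bases apart on the plus strand.
Actn3: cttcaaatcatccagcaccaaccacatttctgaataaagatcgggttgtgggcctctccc
Pvalb: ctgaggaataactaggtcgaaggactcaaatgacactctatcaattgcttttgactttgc
Tnni2: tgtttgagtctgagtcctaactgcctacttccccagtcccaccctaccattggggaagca
Tnnt3: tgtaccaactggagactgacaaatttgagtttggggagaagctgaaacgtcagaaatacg
The Mybpc2 probe spans 145 bases of the minus strand of chromosome 1 (chr1:95060666-95060810), more than its length, and the Atp2a1 probe has no position in the files.

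The 2 Tnnc2 probes read opposite strands of the same place on chromosome 3. The probe designed on the Tnnc2 mRNA lies at chr3:155714006-155714065 on the minus strand, and the other, designed on an expressed sequence tag, at chr3:155713982-155714041 on the plus strand. Capitals mark the 36 bases over which each is the reverse complement of the other.
Tnnc2 mRNA strand: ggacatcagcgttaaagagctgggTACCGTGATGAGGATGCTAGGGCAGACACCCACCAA
Tnnc2 opposite strand: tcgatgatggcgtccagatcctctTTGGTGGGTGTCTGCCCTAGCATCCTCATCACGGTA
The opposite-strand probe has the higher mean signal over all arrays, and the pair is kept apart below because the mRNA-strand probe alone was high where most other members were.

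On 1 of the 30 arrays, that of 21-week female replicate 2, most of these genes were high together. With each gene taken by its brightest row, 8 of the 10 genes were at least 2-fold above the median of the 10 arrays of that age and well above background, beside 0.465% of all 32680 gene names on that array. The 8 were Myh1, Myh2, Myh4, Tnnt3, Tnni2, Actn3, Pvalb and Atp2a1, and Tnnc2 joined them by its mRNA-strand probe. Mybpc2 and the opposite-strand Tnnc2 probe did not reach 2-fold. No other array had 5 such genes: the next had 3, 3 arrays had 2, 4 had 1 and 21 had 0. Since the genes were chosen for their 21-week spread, the count describes that array and supports nothing further.

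Myh4, the heavy chain of the fastest glycolytic fibres, had levels of 0.0261, 2.28, 0.0448, 0.0845 and 0.0164 in 21-week female replicates 1 to 5. In males of that age its levels were 0.0149, 0.0377, 0.0149, 0.0255 and 0.0663. Replicate 2 of the females stood alone: none of the other 9 arrays was well above background. Its level was at least 64.9-fold above the mean of those 9, each taken at the higher of its own level and the lowest level well above background on its array. Myh1, the heavy chain of an intermediate fast fibre type, had levels of 0.0661, 0.581, 0.0135, 0.0898 and 0.0106 in the females and of 0.00976, 0.027, 0.0179, 0.0303 and 0.0142 in the males. It was 6.47-fold above the highest other array, and female replicates 1 and 4 were also well above background, while no male was. Myh2, the heavy chain of fast oxidative fibres, was 0.25 in female replicate 2 and 0.0218 to 0.0916 on the other 9 arrays. The Myh2 level there was 2.73-fold above the highest of the others, a smaller gap than for Myh1 or Myh4.

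Actn3, which cross-links actin at the Z-disc of fast fibres, had levels of 0.177, 3.07, 0.101, 0.174 and 0.0387 in 21-week females. In the males its levels were 0.0334, 0.0542, 0.0641, 0.0508 and 0.182. Replicate 2 was again the highest, 16.9-fold above the next array, which was male replicate 5. By the mRNA-strand probe Tnnc2, the calcium-binding fast troponin subunit, had levels of 0.102, 2.46, 0.0613, 0.119 and 0.0166 in the females and of 0.0316, 0.0379, 0.0267, 0.0467 and 0.113 in the males. This was 20.7-fold above the next array. On the opposite strand the level in replicate 2 was 0.202, inside the range of 0.0559 to 0.381 on the other 9 arrays.

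Tnni2, the inhibitory fast troponin subunit, was measurable on every array of that age, with levels of 0.382, 3.17, 0.215, 0.415 and 0.284 in females and 0.31, 0.743, 0.392, 0.416 and 0.612 in males. The highest female level was 4.27-fold above the highest male one, and the other 4 females overlapped the males. Tnnt3, the tropomyosin-binding fast troponin subunit, had levels of 0.164, 1.4, 0.0906, 0.164 and 0.124 in females. Its levels in males were 0.0869, 0.148, 0.106, 0.0685 and 0.171. Here female replicate 2 stood 8.18-fold above the next array. Pvalb was 0.484 in that array and 0.0137 to 0.0509 on the other 9, none of them well above background, at least 20.2-fold above their mean taken in the same way. Atp2a1 was 0.363 there and 0.03 to 0.0805 elsewhere at 21 weeks. Mybpc2, the fast form of a thick filament regulator, was 0.426 in replicate 2 and 0.421 in female replicate 5, so that array did not stand apart for it.

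**Figure D1:**
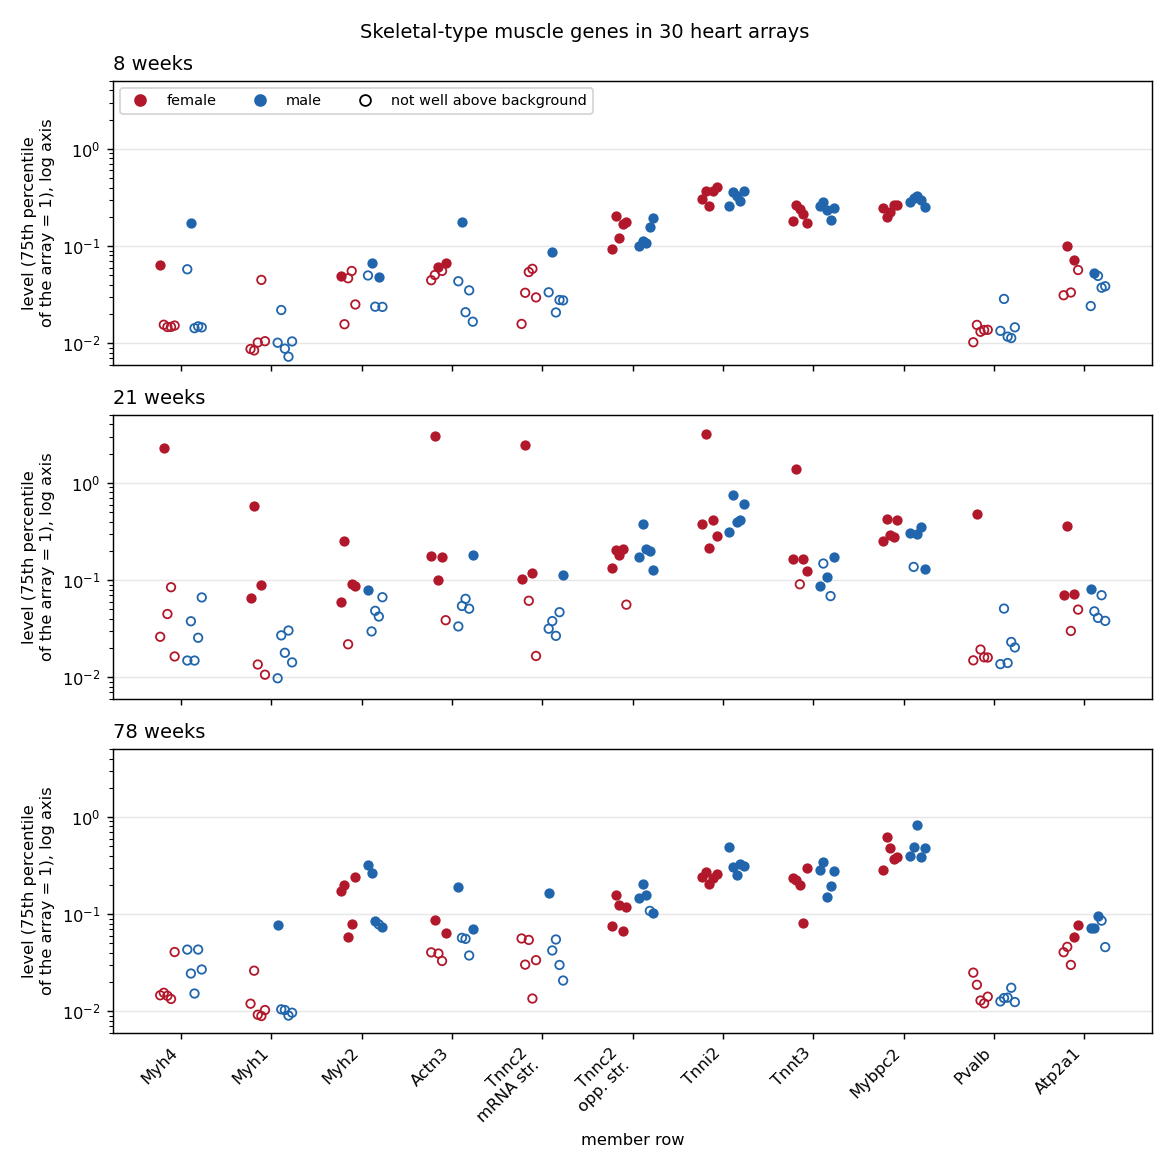
Levels of the 11 member rows on each array at 8, 21 and 78 weeks (vertical log axis, 75th percentile of the array = 1; females red, males blue, open circles not well above background). At 21 weeks 1 female lies above all other arrays in 10 of the 11 rows, by 20.7-fold for the Tnnc2 mRNA strand and 1.01-fold for Mybpc2, and the opposite-strand Tnnc2 row lies within the range of the others.

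Smaller partial rises were seen on other arrays. In 78-week male replicate 1, 3 genes were raised by the same rule (Myh1, Myh2 and Actn3), beside 0.511% of all gene names there. Its Myh1 level was 0.0765, the only Myh1 value at that age well above background, its Actn3 level was 0.19 against at most 0.0879 on the other 9 arrays, and its Tnnc2 mRNA-strand level was 0.163 against at most 0.0562. Neither Myh4 (0.0432) nor Pvalb (0.0126) was well above background on that array. In 8-week male replicate 2, Myh4 (0.171) and Actn3 (0.176) were raised, as was the Tnnc2 mRNA strand (0.0859), beside 0.321% of all gene names. At 21 weeks, female replicates 1 and 4 had Myh1 and Actn3 raised, and male replicate 5 had Actn3, beside 0.419, 0.251 and 0.716% of all gene names. The Tnnc2 mRNA strand was also raised in female replicate 4 (0.119) and in male replicate 5 (0.113). Besides 21-week female replicate 2, the 5 arrays named so far in this paragraph are those with Actn3 raised. Its presence on each follows from that grouping and is no result. Myh1 was raised on 3 of them. In 8-week female replicates 1 and 2 and in 78-week male replicate 2 a single gene was raised (Myh4, Atp2a1 and Myh2), beside 0.113, 0.419 and 0.661%.

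**Figure D2:**
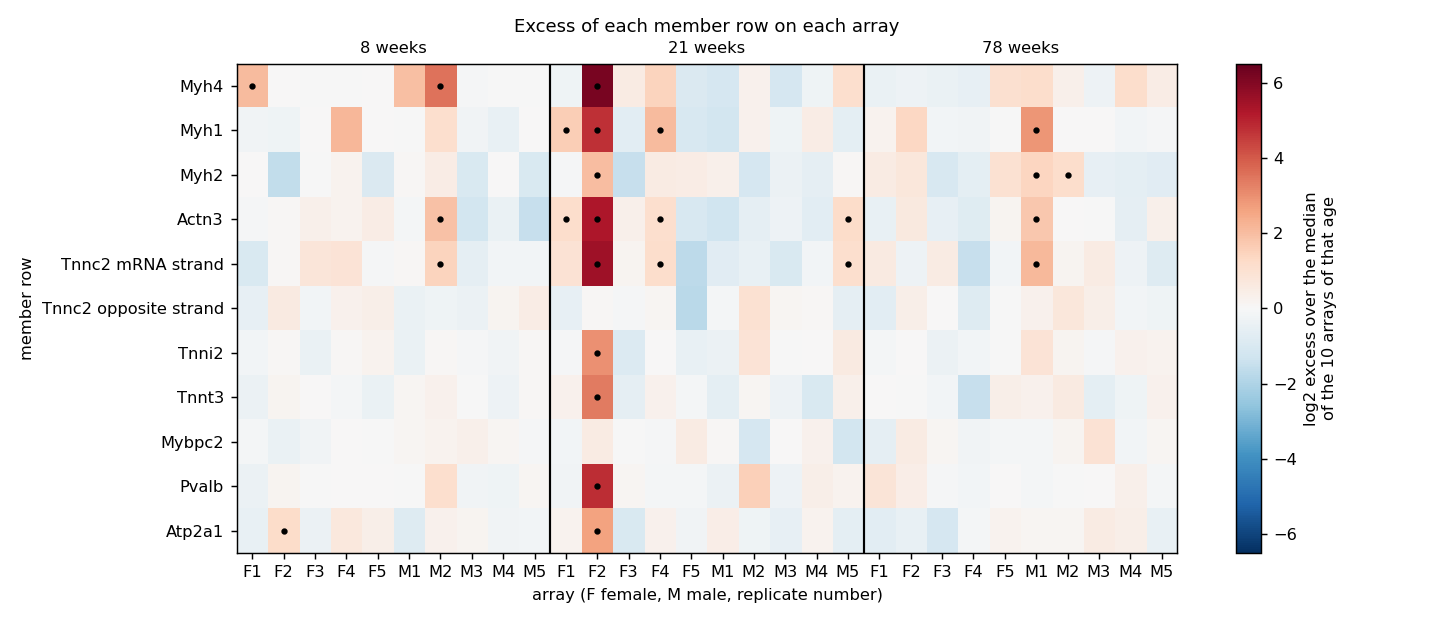
Log2 excess of each member row over the median of the 10 arrays of its age, for the 30 arrays in columns (color scale in log2 units; black dots mark a rise of at least 2-fold that was well above background). The column of 21-week female replicate 2 carries 9 dots, and no other column carries over 4.

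Genes of skeletal muscle outside the members were also looked at on that array, by lists of markers that were chosen with earlier results of these data known. Of 9 measured fast fibre contractile genes, 2 were raised there. Each was raised by 1 of its 2 probes. Mylpf, the fast regulatory light chain, had a level of 3.16 against 0.114 to 0.362 on the other 9 arrays, and Myl1, the fast essential light chain, had 0.424 against 0.145 to 0.254. By the other probe Mylpf was 0.0598, or 1.97-fold its age median, and Myl1 was 0.0122, not well above background. Acta1, the skeletal actin, which the heart also expresses, was 12.2 against 6.65 to 16.2. Of 10 genes of the skeletal membrane and of calcium release, 4 were raised: Cacna1s, Ryr1, Stac3 and Jsrp1. Cacna1s, the voltage sensor of skeletal muscle, was 0.154 by 1 of its 2 probes against at most 0.0496 elsewhere. Ryr1, the skeletal calcium release channel, was 0.0790 and 0.0761 by its 2 probes, and Stac3, which couples sensor and channel, was 0.0750. Cacna1s, Ryr1 and Stac3 were well above background on no other array of that age.

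Other skeletal muscle lists were not raised there. The slow fibre genes Tnnt1 and Tnni1 were 1.21-fold and 0.973-fold their age median, and Mybpc1, at 1.93-fold, stayed under 2-fold. Of 9 genes of muscle energy metabolism, 0 were raised, with Ckm, the muscle creatine kinase, at 1.01-fold and Pgam2 at 0.933-fold. All 9 were well above background, and the heart expresses many of them strongly. None of the 6 neuromuscular junction genes, of the 5 myogenic factors or of the 3 developmental and extraocular myosins was raised, and none of the 5 myogenic factors was well above background. On the other 29 arrays between 0 and 4 genes of these 7 lists were raised, against 6 in female replicate 2. Of the 5 other arrays with Actn3 raised, 21-week male replicate 5 had Mylpf raised (0.362) and 78-week male replicate 1 had Mybpc1 raised.

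The cardiac counterparts of the members kept near their age medians on the same array. Myh6 and Myh7, the cardiac heavy chains, were at 0.961-fold and 0.962-fold of the 21-week median. Tnnt2, Tnni3 and Tnnc1, the cardiac troponin subunits, were at 0.878-fold, 0.927-fold and 0.959-fold. Mybpc3, Actn2 and Atp2a2 were at 0.995-fold, 0.992-fold and 1.01-fold. Each lay inside the range of the other 9 arrays of that age. At 8 and 78 weeks none of the 8 counterparts differed between the sexes after adjustment by limma, with adjusted p between 0.856 and 0.992.

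**Figure D3:**
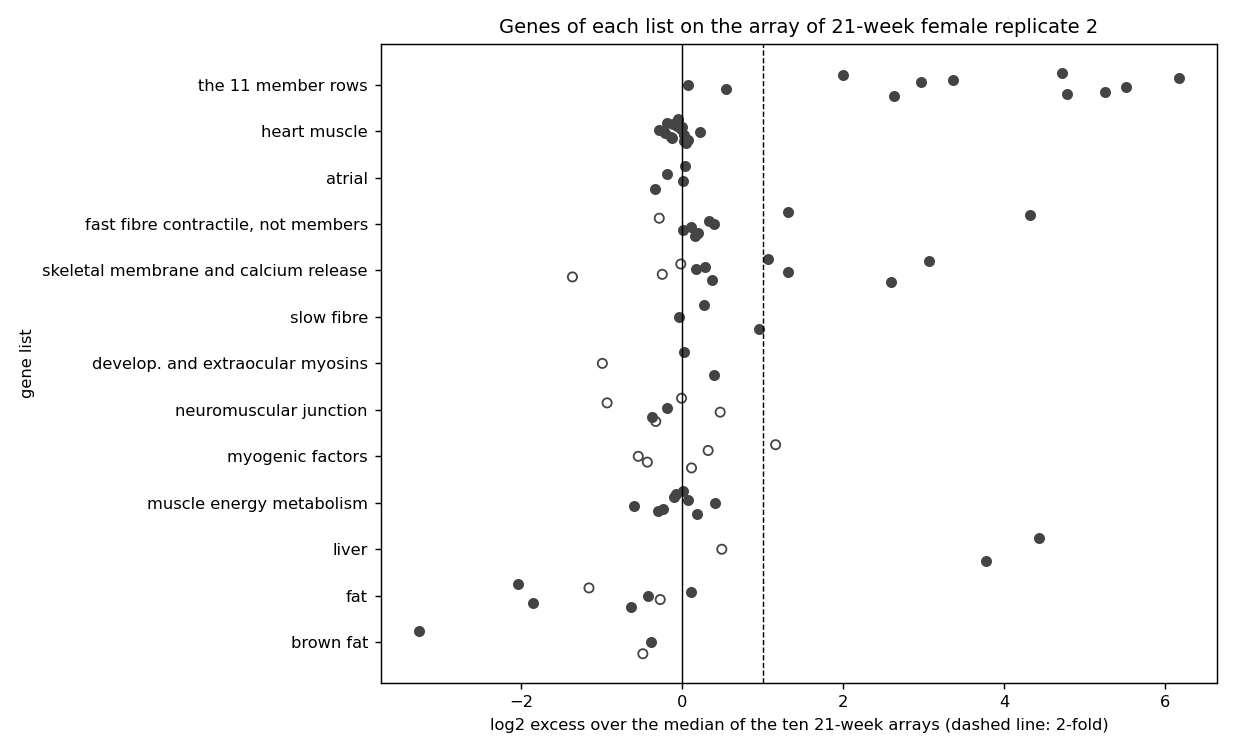
Log2 excess over the median of the 10 arrays at 21 weeks for the genes of each list on the array of 21-week female replicate 2 (1 point per gene by its brightest probe, open circles not well above background, dashed line at 2-fold). Member rows reach 6.18, Mylpf 4.32 and Alb 4.43, while the 16 heart muscle genes stay near 0.

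Markers of other tissues moved on that array as well. Of 3 liver genes, 2 were raised: by their brightest probes Alb, serum albumin, had a level of 2.73 and Fgb, a fibrinogen chain, one of 0.201, while Apoa1 was not well above background. Of their other probes, those at 0.0730 for Alb and 0.0944 for Fgb were raised. Those at 0.0103 for Alb and at 0.00993 and 0.00905 for Fgb were not well above background. The summed level of the 3 liver genes was 2.97 in this rat and 0.0394 to 0.467 in the other 4 females of that age, and 0.0515 to 10.3 in the 5 males. In male replicate 4, which had the highest liver sum of all 30 arrays, 0 of the 10 member genes were raised and Myh4 was 0.0255. In male replicate 5, with a liver sum of 2.93, Actn3 was raised and Myh4 (0.0663) was not well above background. The part of liver RNA in the levels of the members was not tested further. Of 7 fat and 3 brown fat genes 0 were raised: Adipoq, the adipocyte hormone, was 0.361 against 0.540 to 11.8 elsewhere, and Ucp1, the uncoupling protein of brown fat, was 0.380, or 0.103-fold of the age median. None of 5 lung, 6 T cell, 3 blood, 4 nerve sheath, 4 neuronal, 3 smooth muscle, 3 mesothelial and 4 thyroid and oesophagus genes was raised, and no lung gene was well above background.

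**Figure D4:**
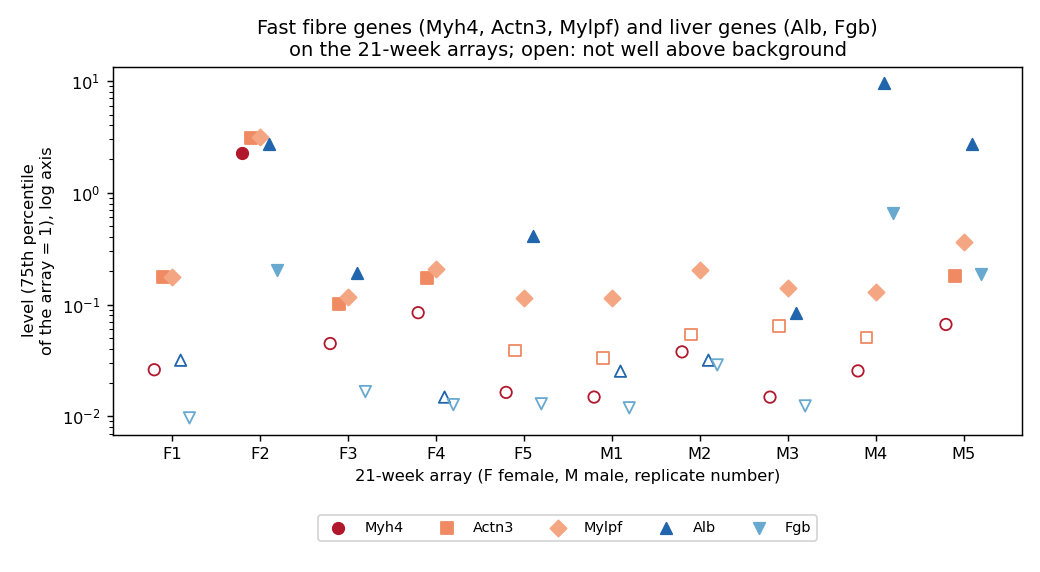
Levels of the fast fibre genes Myh4, Actn3 and Mylpf and of the liver genes Alb and Fgb on the 10 arrays at 21 weeks (vertical log axis, 75th percentile of the array = 1, open symbols not well above background). Both kinds are high in female replicate 2, whereas in male replicate 4 Alb is at its highest and Myh4 is 0.0255, not well above background.

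Among all other genes, the 10 with the largest excess on that array included 4 transcripts without a gene symbol, with levels of 23.6, 36.1, 9.18 and 120 against at most 0.0357, 0.0470, 0.0295 and 2.22 on the other 9 arrays. Rcbtb2 was 27.4 against at most 0.540, and the predicted gene RGD1561243 was 4.02 against at most 0.111. The remaining 4 were Mug1, Cyp2c7, Fabp1 and Ambp, all genes of the liver, with levels of 0.247, 0.166, 0.407 and 0.274. For these 4, 21-week male replicate 4 was the highest of the other arrays, at 1.11, 0.0944, 1.19 and 0.816.

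That array also set the female mean at 21 weeks. On the log2 scale 4 of the 11 rows had a female mean at least 2-fold above the male mean in the table (Actn3, Myh1, Myh4 and the Tnnc2 mRNA strand), beside 0.57% of all rows. Without female replicate 2 the count was 0 of 11, beside 0.811% of all rows. For Actn3 the log2 difference was 1.69 with all 5 females and 0.71 without that rat, and for Tnni2, which was well above background on all 10 arrays, it was 0.09 and -0.58. Actn3 was well above background on 4 of the 5 females, that rat among them, and on 1 of the 5 males. Its differences are therefore set largely against male levels near background. For Myh4 and Pvalb no array but that one was well above background, so no difference without it is given. The standard deviation of Tnni2 over the 5 females was 1.54 log2 units, against 0.51 over the 5 males. The highest male Tnni2 level, 0.743, was on male replicate 2, which had the fewest spots well above background (17223) and the lowest 75th percentile signal (65.1) of all arrays. Without female replicate 2, by scanner values, Myh6, Myh7, Tnnt2, Tnni3 and Tnnc1 also differed by -0.51 to -0.31. Mybpc3, Actn2 and Atp2a2 differed by 0.03 to 0.14. The median difference of the 11 rows fell from 0.60 to 0.27, while the median over all rows was -0.14 in both cases. By raw median signal or by normexp background correction none of the 11 rows reached 2-fold in the group means.

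At 8 and 78 weeks, whose values did not choose the genes, the sexes were compared by limma over all table rows. At 8 weeks 0 of 10 member rows differed at an adjusted p below 0.05, beside 0.102% of all rows, and 1 had an unadjusted p below 0.05, beside 5.74% of all rows. That row was Mybpc2, with levels of 0.248, 0.199, 0.225, 0.267 and 0.265 in females and 0.287, 0.316, 0.329, 0.295 and 0.251 in males. The groups overlapped by female replicates 4 and 5, which lay above male replicate 5. The female mean was lower by a log2 difference of -0.30 (SE 0.11, n = 5 per sex, limma adjusted p = 0.769), and the exact two-sided permutation test gave p = 0.0238, where 0.0079 is the smallest p that 5 against 5 allows. In the 3 slides that carried both sexes the difference was -0.44, -0.35 and 0.08. Of the 10 rows 5 were higher and 5 lower in females, with a median difference of -0.08, against -0.004 over all rows.

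The other rows at 8 weeks were dim or close between the sexes. Tnni2 was 0.258 to 0.401 in females and 0.26 to 0.367 in males, and Tnnt3 was 0.172 to 0.266 and 0.186 to 0.286. Tnnc2 was well above background by the mRNA-strand probe on 1 array, and Pvalb on 0 of 10. Myh2 was well above background on 3 arrays, Atp2a1 and Actn3 on 3 each and Myh4 on 2, so a fold between sexes is not given for these. The limma adjusted p of the 10 rows lay between 0.769 and 0.998.

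At 78 weeks 0 of 9 member rows differed at an adjusted p below 0.05, beside 0% of all rows, and 1 had an unadjusted p below 0.05, beside 5.65% of all rows. That row was Tnni2, with levels of 0.241, 0.27, 0.207, 0.235 and 0.262 in females and 0.494, 0.304, 0.255, 0.326 and 0.316 in males. The groups overlapped by male replicate 3, which lay below female replicates 2 and 5, and the Y-linked genes went against the label on that array and on female replicate 2. The female mean was lower by a log2 difference of -0.45 (SE 0.17, n = 5 per sex, limma adjusted p = 0.856), and the exact two-sided permutation test gave p = 0.0238. Within the slides of that age the difference was -1.04, -0.24 and -0.37.

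All 9 rows had a lower mean in females at 78 weeks, with a median log2 difference of -0.45 against -0.004 over all rows. The share of all rows with a lower female mean was not counted. Several of the 9 lay near background: Myh4 was well above it on 0 arrays, the Tnnc2 mRNA strand on 1 and Actn3 on 2 per sex. Myh2 differed by only -0.01. With normexp background correction 8 of the 9 turned, while the median over all rows moved to 0.16. Leaving out both arrays whose Y-linked genes opposed the label, all 9 remained lower in females, with a median of -0.53, and 0 of 9 passed adjustment beside 0.0339% of all rows, with 1 at an unadjusted p below 0.05 beside 8.4%. Tnni2 then differed by -0.59 (SE 0.18, n = 4 per sex, limma adjusted p = 0.463). With only male replicate 1 left out, the array with the partial rise, Actn3 moved from -0.48 to -0.12. The Tnnc2 mRNA strand moved from -0.50 to -0.05, Tnni2 from -0.45 to -0.31 and Myh2 from -0.01 to 0.31. Mybpc2 moved the other way, from -0.24 to -0.32, and Atp2a1 stayed at -0.59. Mybpc2 levels were 0.286, 0.628, 0.475, 0.372 and 0.39 in females and 0.393, 0.487, 0.822, 0.383 and 0.477 in males. Myh2 was well above background on 9 of 10 arrays at this age, with levels of 0.0589 to 0.242 in females and 0.0732 to 0.317 in males, against 3 of 10 at 8 weeks. Ages were in different batches, so these levels are not compared further.

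**Figure D5:**
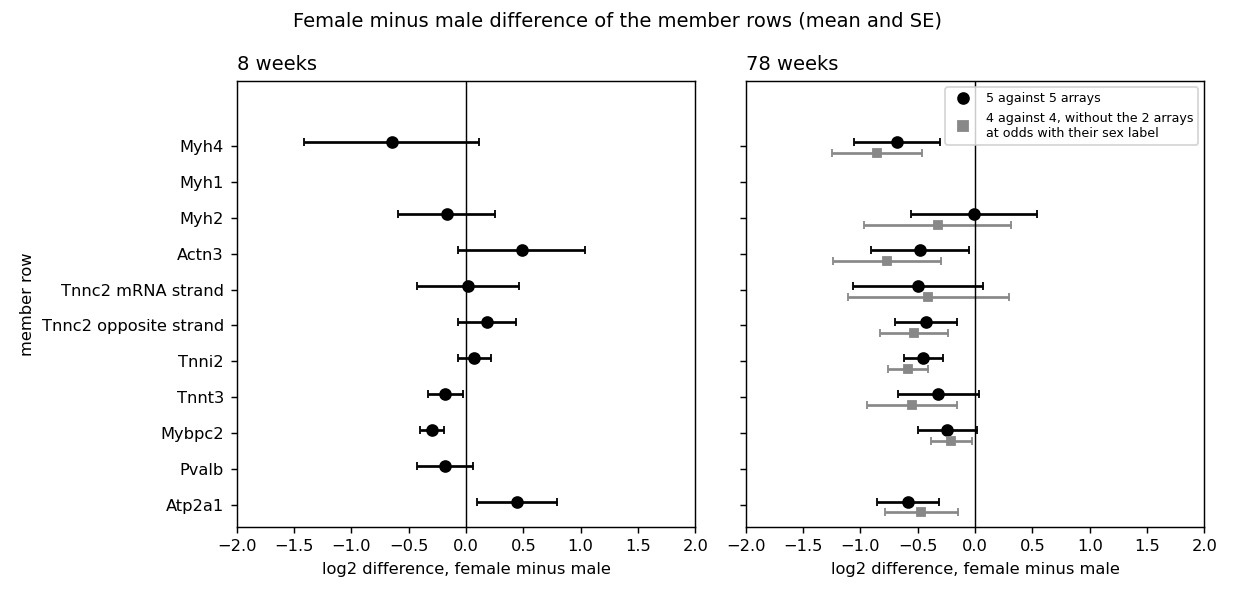
Log2 difference, female minus male, of the member rows at 8 and 78 weeks (points are limma estimates, bars 1 SE, n = 5 per sex; gray squares leave out the 2 arrays with opposed Y-linked genes). No row passed adjustment at either age, and Myh4 at 78 weeks and Pvalb at 8 weeks were well above background on 0 of 10 arrays.

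The sequence before the start of each gene was read for 9 of the 10 members from RefSeq on the build GRCr8, because most of them were high on the same array. Over the 250 bases before the start, the E-box CAGCTG was present in 2 of 9 members and in 12% of 33469 promoters of the same length, and the wider pattern CANNTG, which contains it, in 6 of 9 and 65.5%. The pattern TATAAA was present in 4 of 9 and 12.9%. Those 4 were Tnni2 and the paralogs Myh1, Myh2 and Myh4 of the chromosome 10 cluster, which are not independent of each other. No test was run on these counts. Both strands were searched. The promoter of Myh4 (chr10:52421898-52422147, plus strand) is shown, as the gene with the largest excess, with the CAGCTG match in capitals.
Myh4 promoter: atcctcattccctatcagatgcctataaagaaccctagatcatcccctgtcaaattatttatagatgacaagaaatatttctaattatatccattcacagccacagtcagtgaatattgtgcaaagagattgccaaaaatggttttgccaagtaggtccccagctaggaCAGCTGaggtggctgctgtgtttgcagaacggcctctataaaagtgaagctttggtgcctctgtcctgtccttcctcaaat
A match is a description of these letters and not a bound site.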

How the data were processed

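Heart RNA of 30 rats was labeled with Cy3 and hybridized to Agilent arrays, 1 per rat. The authors deposited scanner files with probe intensity values and, per age, a table of intensity values, filtered for expressed genes and scaled to the 75th percentile of each array. Signals were extracted with Agilent Feature Extraction per the labels. No rn3 annotation was used. The columns of 21-week males name only the group (5 columns), so values per rat were taken from the scanner processed signal. Each member row was matched to 1 probe within 0.002 log2. Background flags are those of the scanner software. Tests used limma 3.58.1 in R 4.3.3 on log2 table values of all rows, female against male within 8 and 78 weeks, with Benjamini-Hochberg adjustment over all rows and an exact permutation test for single rows. The fit was tested on simulated data. With 5 rats per sex and 1 array per rat, a limma p-value sets the female minus male difference against the spread between arrays, moderated over all rows. That spread mixes rat, labeling, slide and position. An array was counted when 5 of 10 member genes, by the row brightest over all arrays, were at least 2-fold above the age median and well above background. Named genes were all members, their cardiac counterparts, raised genes of the other skeletal lists, the 10 largest excesses outside the lists on a counted array, and the Y-linked Ddx3y and Eif2s3y. Genes of the lists that were not raised, and genes of the liver, fat and brown fat lists, are named outside this rule, chosen after their values were seen. Where a probe was not well above background on the other arrays, each was set to the higher of its own level and the lowest level well above background, and the fold is given as at least that size. The members and lists were chosen with earlier results of these data known. Alternatives were background correction, normalization, filters, rows of a name, slide or replicate number as a block, the methods' t-test and each array left out.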

Additional observations from a re-analysis of the deposited data

Results flagged for a closer look

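In each group of 5 arrays, and for each member row and cardiac counterpart, the highest and the lowest array were compared with the rest of their group on the log2 scale by the share of the group's range that separated them from the nearest array (Dixon's critical value 0.71). Of 114 groups 15 exceeded it, 9 of them in member rows. Chance alone flags about 1 in 20 groups. The 21-week groups of the members hold the values that chose the genes, so their separations are a description and no test.

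In 21-week females replicate 2 was set apart for Pvalb (0.926, level 0.484), Tnnt3 (0.783, level 1.40) and Tnni2 (0.756, level 3.17). None of the other member rows, Myh4, Actn3 and Myh1 among them, exceeded it there. The share falls when the rest of the group is spread out. For Myh4 the other females lay between 0.0164 and 0.0845, not well above background. In 78-week males replicate 1 was set apart for Myh1 (0.931, level 0.0765). That Myh1 value is also a signal outside the tables, which hold no Myh1 row at 78 weeks, and the probe was well above background on no other array of that age. In 8-week females replicate 1 was set apart for Myh4 (0.963, level 0.0631).

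The other 4 separations in member rows were at levels not well above background: Myh1 in 8-week female replicate 4 (0.869) and 78-week female replicate 2 (0.728), Myh4 in 78-week female replicate 5 (0.868) and Pvalb in 8-week male replicate 2 (0.726). Among the cardiac counterparts, 8-week female replicate 1 was lowest for Myh7 (0.788) and Tnnc1 (0.877), 78-week male replicate 4 was highest for Tnni3 (0.748), Mybpc3 (0.857) and Actn2 (0.765), and 21-week female replicate 5 was lowest for Actn2 (0.766).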

How the results depend on the processing

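The count of member rows that differed between the sexes stayed at 0 of 10 at 8 weeks and 0 of 9 at 78 weeks in limma under every alternative that was run, with other background corrections, quantile normalization, the filter on dim rows (4 and 6 rows left), the first row of a name, slide as a block, the methods' t-test, or without any array in turn. With the replicate number as a block the count was also 0 at both ages, and it changed no call. Same-numbered males and females shared a slide, at neighboring positions. They correlated by -0.08 to 0.14 at 8 weeks and by 0.06 to 0.22 at 78 weeks. At 78 weeks 4 of 5 pairs exceeded 0.1 and the male of the same number was the best match of the female. Since not every pair did, the number was not taken as a pairing in the main fit. A shared slide and a pairing cannot be told apart here. Differences that passed no test still turned sign in 11 of 183 fits at 8 weeks and 13 of 176 at 78 weeks, of which 8 by normexp at 78 weeks. At 21 weeks the 4 rows with a female mean at least 2-fold above the male mean became 0 by raw median signal and 0 by normexp, and 0 to 6 when each array was left out, where 0 came without female replicate 2. The cause was not tested. The 1 array with at least 5 raised member genes remained the same array under all alternatives and became 0 only without that array (0 to 1 over all arrays left out). It had 6 to 9 raised genes, and the next array at most 4. The alternative of counting Tnnc2 by its mRNA-strand probe, and that without 2 arrays at 78 weeks, were chosen after seeing the data. Most member rows lie near background, which limits their folds.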
